A study of Mus musculus with 7 samples.

Results

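The genes described here are 44 interferon-stimulated genes, taken by symbol from a table of 54532 genes measured by RNA-seq in mouse liver. They were chosen by name and not by a measured value, and all 44 were found in the table. By the interferon class that classically induces them, 35 were listed as type I responsive and 9 as interferon-gamma responsive (Irf1, Irf8, Gbp2, Gbp3, Gbp7, Igtp, Irgm1, Iigp1 and Ifi47). The series compared livers of old C57BL/6 mice under the 2 diets of the labels. One group of 3 libraries (MDL-800 1 to 3) came from mice on a standard diet after supplementation with MDL-800, a small molecule described in the series title as an activator of the deacetylase SIRT6. The other 4 libraries (control 1 to 4) came from mice on a standard diet alone. The labels give no age in numbers, sex, dose or duration, and do not say whether each library is 1 animal, so a p-value here reflects library-to-library spread, which may be technical.

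Interferons are secreted signals of antiviral and inflammatory defence. Type I interferons bind the receptor pair Ifnar1 and Ifnar2, and the kinases Jak1 and Tyk2 then signal to a complex with Stat2 and Irf9 that acts on the interferon-stimulated response element (ISRE). Interferon-gamma, made mainly by T and NK cells, binds Ifngr1 and Ifngr2 and acts through the gamma-activated site (GAS). In liver, hepatocytes, Kupffer cells (the resident macrophages) and endothelial cells all carry such receptors, and many members are transcribed at a low level without infection.

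Promoter windows from RefSeq (GRCm38.p6, 250 bases before to 50 bases after each start) were matched for 32 of the 44 members by symbol, with 37 windows in all. The ISRE was searched as GAAANNGAAA and the GAS as TTCNNNGAA, on both strands. An ISRE match lay in 18 of the 32 genes (56.2%) and in 18 of the 37 windows (48.6%), against 3.44% of all 32851 windows of this length. A GAS match lay in 9 of the 32 genes (28.1%) and in 24.3% of the 37 windows, against 8.30% of all windows. Among type I responsive members an ISRE match was found in 13 of 24 genes (54.2%) and a GAS match in 5 (20.8%). Among interferon-gamma responsive members an ISRE match was found in 5 of 8 (62.5%) and a GAS match in 4 of 8, so both strings occurred in both classes. Windows of 6 genes are shown as examples of repeated ISRE matches, overlapping or apart, of ISRE with GAS, and of GAS alone. Windows with a single ISRE match and no GAS match, such as those of Gbp2 and Rsad2, are not shown. The windows shown are Isg15 chr4:156200769-156201068 on the minus strand, Ifit1 chr19:34640639-34640938 on the plus strand, Bst2 chr8:71537423-71537722 on the minus strand, Gbp3 chr3:142559794-142560093 on the plus strand, Gbp7 chr3:142530086-142530385 on the plus strand and Irf8 chr8:120736108-120736407 on the plus strand. Each is written 5′ to 3′ along its gene, and capitals mark the ISRE and GAS matches.
Isg15: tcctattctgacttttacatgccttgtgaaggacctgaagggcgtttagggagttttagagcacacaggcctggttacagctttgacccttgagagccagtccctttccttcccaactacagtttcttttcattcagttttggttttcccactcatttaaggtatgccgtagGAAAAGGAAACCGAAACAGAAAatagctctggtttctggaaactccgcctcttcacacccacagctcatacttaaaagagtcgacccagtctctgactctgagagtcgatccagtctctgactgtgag
Ifit1: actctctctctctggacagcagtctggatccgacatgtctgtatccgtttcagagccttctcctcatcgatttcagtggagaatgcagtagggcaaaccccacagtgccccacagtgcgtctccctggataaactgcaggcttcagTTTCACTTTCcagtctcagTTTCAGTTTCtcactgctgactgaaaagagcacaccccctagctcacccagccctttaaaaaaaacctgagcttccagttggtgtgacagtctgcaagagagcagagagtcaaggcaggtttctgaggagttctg
Bst2: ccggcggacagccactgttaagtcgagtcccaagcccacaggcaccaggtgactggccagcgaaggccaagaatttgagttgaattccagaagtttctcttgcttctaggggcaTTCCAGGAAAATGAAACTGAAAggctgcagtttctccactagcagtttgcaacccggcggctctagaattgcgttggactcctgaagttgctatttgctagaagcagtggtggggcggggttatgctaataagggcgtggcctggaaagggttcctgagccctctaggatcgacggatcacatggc
Gbp3: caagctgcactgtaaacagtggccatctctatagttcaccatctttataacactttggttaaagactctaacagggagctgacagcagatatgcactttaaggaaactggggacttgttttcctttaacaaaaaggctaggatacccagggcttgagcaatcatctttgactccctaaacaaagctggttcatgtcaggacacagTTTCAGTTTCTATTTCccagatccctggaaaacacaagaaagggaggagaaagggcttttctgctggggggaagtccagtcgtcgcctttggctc
Gbp7: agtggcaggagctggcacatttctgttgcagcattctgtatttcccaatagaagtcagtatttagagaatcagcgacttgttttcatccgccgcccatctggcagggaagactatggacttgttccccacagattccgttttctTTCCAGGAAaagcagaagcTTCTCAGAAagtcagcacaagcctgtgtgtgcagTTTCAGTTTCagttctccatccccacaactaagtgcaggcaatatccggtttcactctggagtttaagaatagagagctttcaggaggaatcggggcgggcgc
Irf8: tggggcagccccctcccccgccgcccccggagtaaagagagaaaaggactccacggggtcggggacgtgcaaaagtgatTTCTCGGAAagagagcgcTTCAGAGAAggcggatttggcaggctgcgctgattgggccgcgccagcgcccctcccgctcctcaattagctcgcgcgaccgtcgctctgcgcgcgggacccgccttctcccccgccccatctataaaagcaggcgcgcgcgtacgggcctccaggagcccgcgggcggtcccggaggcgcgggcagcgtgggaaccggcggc
Isg15 held 3 overlapping ISRE matches, beginning 78, 72 and 66 bases before the start. Ifit1 held 2 separate matches on the opposite strand, beginning 104 and 85 bases before the start. In Bst2 a GAS match beginning 136 bases before the start overlapped the first of 2 ISRE matches, and in Gbp3 2 ISRE matches overlapped each other 45 and 39 bases before the start. Gbp7 held 2 GAS matches, 106 and 87 bases before the start, and 1 ISRE match 53 bases before it. Irf8 held 2 GAS matches, 171 and 153 bases before the start, and no ISRE match in this window. A match is a description of letters and not a bound site.

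Levels are deposited FPKM, reads per kilobase of gene length, scaled by the authors to library depth. The means over 7 libraries ran from 0.872 FPKM for Oas3 to 322 FPKM for Bst2, with a median member at 8.02 FPKM. Of the 44, 17 had a mean of at least 10 FPKM and 26 a mean between 1 and 10 FPKM. Oas3 alone fell below the mean of 1 FPKM that was required for a test, which left 43. Recovered reads per library numbered 17600066 to 19920469, and the members drew from 516 reads (Mx1) to 56078 reads (Iigp1) over all libraries. Reads from Y-linked genes (Uty, Eif2s3y, Kdm5d and Ddx3y) numbered 2173 in control 1 and 3514 in MDL-800 2, here called the Y-positive libraries, and 0 in the other 5. The labels give no sex, and the libraries of each diet are therefore a mixture on this measure. Because these 2 libraries stood apart in the members too, the diet comparison is given with and without them. That choice rested partly on the members' own values. MDL-800 2 was the lowest library in 38 of the 43 tested members, so leaving the pair out raises their difference by diet. Their median log2 difference went from -0.03 to 0.25, and the comparison without the pair is therefore a description only. Hepatocyte markers were abundant in all libraries (summed Alb, Apoa1, Ttr, Cps1, Serpina1a and Hnf4a between 54299 and 81894 FPKM).

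**Figure D1:**
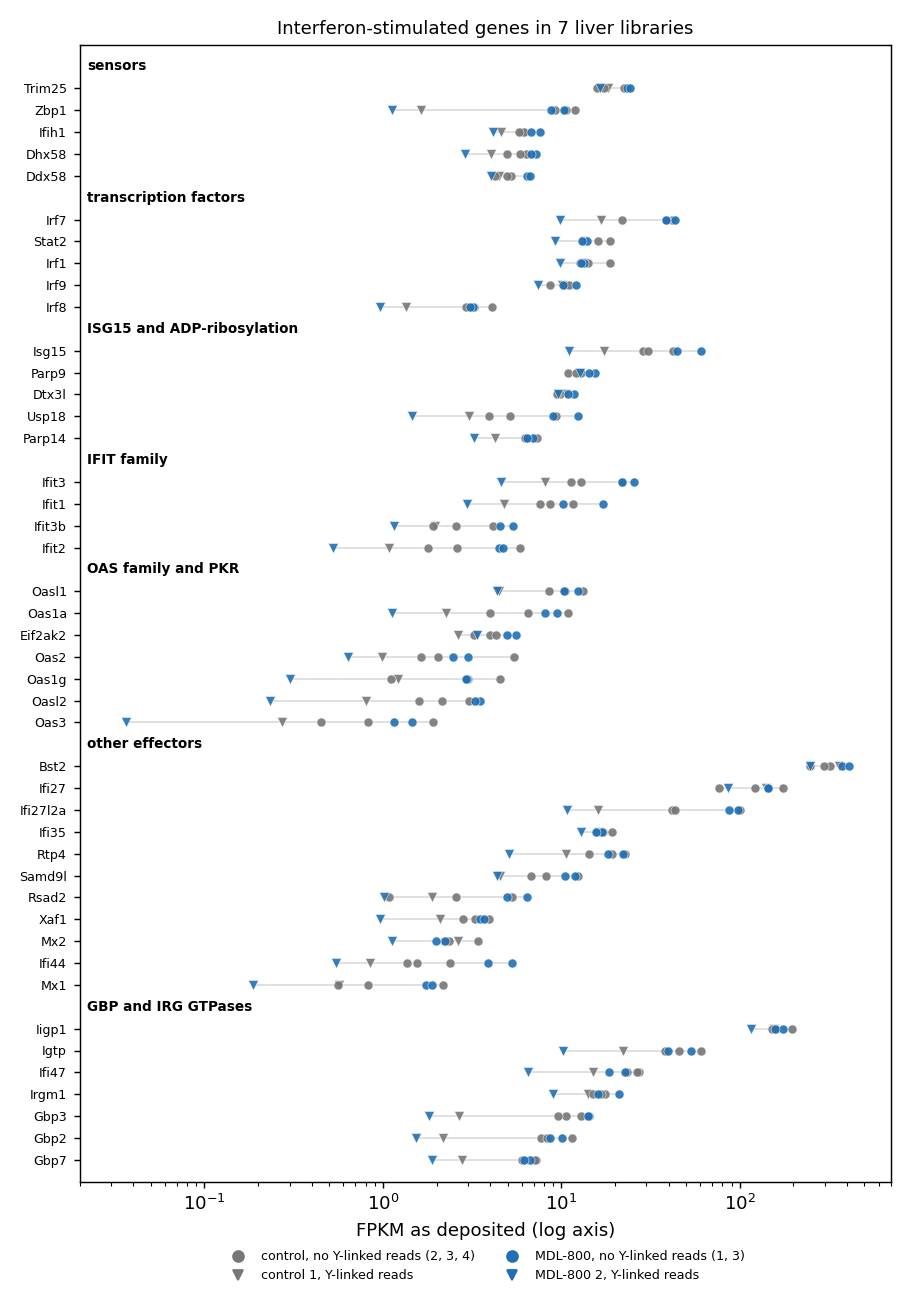
Deposited FPKM (log axis) of the 44 interferon-stimulated genes by role, 1 point for each of the 7 liver libraries (grey for control, blue for MDL-800, triangles for the 2 libraries with Y-linked reads). The triangles lie lowest for genes such as Zbp1, Gbp3 and Ifi27l2a, and within the range of the other points for genes such as Parp9 and Dtx3l.

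Among the sensors of foreign nucleic acid, Zbp1, which detects Z-form nucleic acid and starts necroptosis, was the most uneven of the 5. It lies on chromosome 2 (173206612 to 173218923, minus strand, GRCm38) and measured 1.64, 9.19, 12.01 and 10.6 FPKM in controls 1 to 4 and 10.3, 1.13 and 8.77 FPKM in MDL-800 1 to 3. Control 1 and MDL-800 2 were thus far below the other 5 libraries, and the 2 diets overlapped throughout. The RNA helicase Ifih1 (MDA5) measured 4.61, 6.01, 6.16 and 5.77 FPKM in controls and 7.63, 4.16 and 6.77 FPKM in MDL-800 libraries. The related helicase Ddx58 (RIG-I) ran from 4.27 to 5.26 FPKM in controls and measured 6.40, 4.03 and 6.66 FPKM with MDL-800. Both helicases were highest in MDL-800 1 and 3 and lowest in MDL-800 2. Dhx58 (LGP2), a regulator of these helicases, ran from 2.89 to 7.18 FPKM with the same lowest library. Trim25, the ubiquitin ligase that activates RIG-I, was the highest sensor and the flattest, from 15.9 to 24.2 FPKM.

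The transcription factors that carry the signal fell into an uneven pair and a steady trio. Irf7, the amplifier of type I interferon production, measured 16.6, 41.9, 21.9 and 38.8 FPKM in controls and 43.4, 9.87 and 38.7 FPKM in MDL-800 libraries. Irf8, a factor of macrophages and dendritic cells, measured 1.35, 4.07, 2.92 and 3.26 FPKM in controls and 3.18, 0.958 and 3.07 FPKM in MDL-800 libraries. For both, the 2 libraries with Y-linked reads were lowest and the rest of the 2 diets overlapped. Irf1, the first factor induced by interferon-gamma, stayed between 9.87 and 18.8 FPKM, Irf9 between 7.40 and 12.1 FPKM, and Stat2 between 9.19 and 18.7 FPKM.

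Isg15, a ubiquitin-like protein that is attached to other proteins and secreted, measured 17.3, 42.4, 28.8 and 30.8 FPKM in controls and 60.9, 11.1 and 44.6 FPKM with MDL-800. Its highest and its lowest value were both in the MDL-800 group. Usp18, the protease that removes Isg15 and blocks the type I receptor, followed with 3.04, 5.14, 3.92 and 9.36 FPKM in controls and 12.4, 1.45 and 9.03 FPKM with MDL-800. The ADP-ribosyltransferase Parp14 was at 3.23 to 7.28 FPKM. Parp9 and its partner ligase Dtx3l were nearly flat, at 10.8 to 15.4 FPKM and 9.49 to 11.8 FPKM. These 2 genes overlap on opposite strands and the library kit does not mark strand, so some of their reads cannot be told apart.

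The IFIT proteins bind viral RNA that lacks host marks. Ifit1 measured 4.78, 11.7, 8.59 and 7.58 FPKM in controls and 17.2, 2.96 and 10.2 FPKM with MDL-800, and Ifit3 measured 8.06, 21.8, 12.8 and 11.3 FPKM against 25.5, 4.61 and 21.9 FPKM. In both genes MDL-800 1 was the highest library and MDL-800 2 the lowest. Ifit2 ran from 0.524 to 5.86 FPKM and Ifit3b from 1.16 to 5.38 FPKM. Ifit3 and Ifit3b are close copies, so how reads were divided between them is uncertain.

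Among the OAS enzymes, which make the second messenger that switches on RNase L, Oas1a was highest per length. It measured 2.27, 10.9, 3.97 and 6.51 FPKM in controls and 9.49, 1.13 and 8.10 FPKM with MDL-800. Control 2 held its highest value and MDL-800 2 its lowest. Oas1g ran from 0.303 to 4.55 FPKM, Oas2 from 0.636 to 5.42 FPKM and Oas3 from 0.0364 to 1.91 FPKM. All 3 peaked in control 2 and had their lowest value in MDL-800 2, and reads of Oas1a and Oas1g may be shared because they are near copies. The OAS-like Oasl1, which restrains Irf7 translation, measured 4.49, 13.2, 10.5 and 8.56 FPKM in controls and 12.4, 4.34 and 10.3 FPKM with MDL-800. Its relative Oasl2 was lower, from 0.232 to 3.51 FPKM. Eif2ak2 (PKR), the kinase that stops translation on double-stranded RNA, ran from 2.64 FPKM in control 1 to 5.57 FPKM in MDL-800 1.

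The remaining effectors held the highest and some of the lowest levels. Bst2 (tetherin), which holds budding virus at the cell surface, measured 361, 249, 322 and 295 FPKM in controls and 373, 248 and 407 FPKM with MDL-800. Ifi27, a mitochondrial protein, ran from 76.6 to 175 FPKM. Neither set the 2 libraries with Y-linked reads apart. Its relative Ifi27l2a did: 16.1, 101, 41.9 and 43.7 FPKM in controls and 98.4, 10.7 and 87.5 FPKM with MDL-800. Rtp4 ran from 5.07 to 22.7 FPKM, Samd9l from 4.38 to 12.4 FPKM and the pro-apoptotic Xaf1 from 0.961 to 3.95 FPKM, each lowest in those 2 libraries. Rsad2 (viperin), which makes a chain-terminating nucleotide, ran from 1.01 to 6.39 FPKM, with control 4 at 1.08 FPKM beside MDL-800 2. The dynamin-like GTPase Mx1 ran from 0.187 to 2.16 FPKM and Mx2, annotated as a polymorphic pseudogene, from 1.12 to 3.42 FPKM. Ifi35 was flat at 12.9 to 19.3 FPKM. Ifi44 measured 0.844, 1.56, 1.36 and 2.37 FPKM in controls and 5.33, 0.546 and 3.88 FPKM with MDL-800, so MDL-800 1 and 3 exceeded every control and MDL-800 2 was below every control.

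The GBP and IRG proteins are interferon-gamma induced GTPases that attack the vacuoles of intracellular pathogens. The neighbours Gbp7, Gbp3 and Gbp2 lie in that order on chromosome 3, with starts at 142530342, 142560026 and 142620602 (GRCm38). Gbp3 measured 2.66, 12.8, 10.6 and 9.56 FPKM in controls and 14.4, 1.81 and 14.2 FPKM with MDL-800. Gbp2 measured 2.16, 11.5, 7.72 and 8.36 FPKM against 8.65, 1.53 and 10.1 FPKM. Gbp7 measured 2.79, 7.18, 7.13 and 6.04 FPKM against 6.68, 1.88 and 6.16 FPKM. In all 3, control 1 and MDL-800 2 were the lowest libraries and the other 5 lay close together. The IRG members Igtp (10.3 to 60.8 FPKM), Ifi47 (6.48 to 27.2 FPKM) and Irgm1 (8.93 to 20.95 FPKM) were also lowest in those 2 libraries. Iigp1, the most abundant of the class, measured 155, 152, 197 and 160 FPKM in controls and 175, 116 and 159 FPKM with MDL-800, and control 1 lay inside the range of the others.

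Outside the libraries with Y-linked reads, the mean of the interferon-gamma responsive class varied less than that of the type I class. Single members of the former still moved in those 5 libraries, such as Igtp, from 38.1 to 60.8 FPKM. The difference in spread was not tested. The mean log2(FPKM + 1) of the 9 interferon-gamma responsive members was 3.36 in control 1 and 2.82 in MDL-800 2, and 4.12 to 4.26 in the other 5 libraries. The mean over the 34 tested type I members was 2.77 and 2.35 in those 2 libraries, and 3.16 to 3.69 in the other 5, with MDL-800 1 (3.69) and MDL-800 3 (3.58) highest. By diet the type I mean was 3.18 ± 0.31 in controls (SD, n = 4) and 3.21 ± 0.75 with MDL-800 (SD, n = 3), and the interferon-gamma mean was 3.995 ± 0.42 and 3.73 ± 0.80. Within a library, the type I mean minus the interferon-gamma mean was -0.60, -0.75, -1.04 and -0.87 in controls 1 to 4 and -0.56, -0.47 and -0.54 in MDL-800 1 to 3. All 3 MDL-800 libraries were thus above all 4 controls on this difference (nearest pair -0.56 in MDL-800 1 and -0.60 in control 1), and no test was made over the members. With medians in place of means the 2 diets overlapped (-1.38 to -0.62 in controls, -0.67 to -0.43 with MDL-800). This comparison was chosen after seeing the data.

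**Figure D2:**
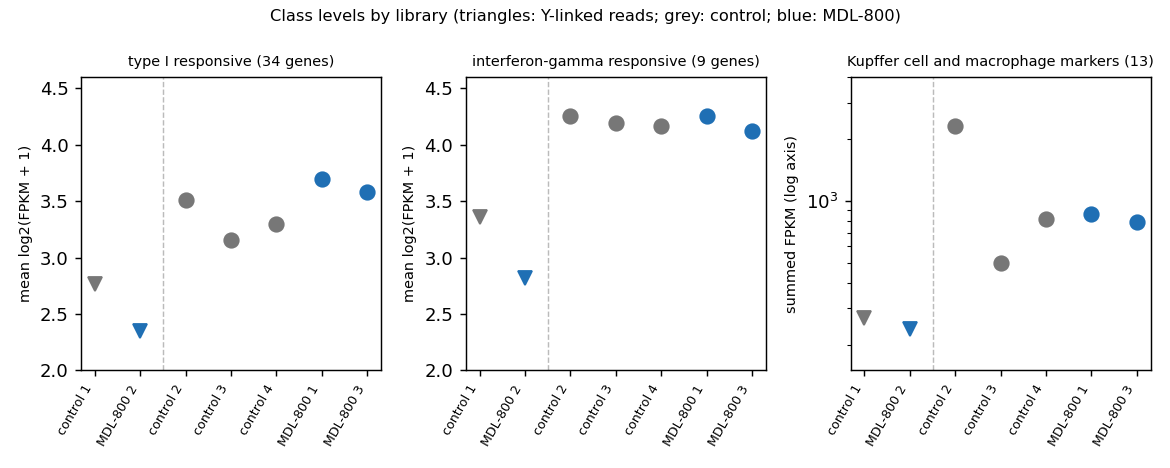
Mean log2(FPKM + 1) of the 34 tested type I responsive members, the same for the 9 interferon-gamma responsive members, and the summed FPKM of 13 Kupffer cell and macrophage markers (log axis), 1 point per library. The 2 libraries left of the dashed line, control 1 and MDL-800 2, hold Y-linked reads and are lowest in all 3 panels. In the interferon-gamma panel the other 5 lie between 4.12 and 4.26.

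A linear model (limma, two-sided) on log2(FPKM + 1) with terms for diet and for Y-linked reads gave the size of this split, which was known from earlier results on these data. All 43 tested members were lower in the 2 Y-positive libraries, with a median difference of -0.98 against 0.08 over all 11394 genes tested, of which 61.1% were above 0. For 26 of the 43 members both of these libraries lay below all of the other 5, against 12.8% of all genes. They were 19 of 34 type I and 7 of 9 interferon-gamma responsive members. After Benjamini-Hochberg adjustment over all genes, 9 of the 43 members passed 0.05 and all 9 were lower, against 1.10% of all genes called lower and 1.33% called higher. The 9 were Zbp1, Gbp3, Gbp2, Gbp7, Irf8, Oasl1, Parp14, Ifi47 and Ifi27l2a, that is 4 of 34 type I and 5 of 9 interferon-gamma responsive members. The difference between the classes was not tested.

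Zbp1 had a mean of 10.2 ± 1.27 FPKM in the 5 libraries without Y-linked reads (SD) and 1.39 FPKM in the 2 with them, a difference of -2.21 ± 0.13 on the log2 scale (SE, limma adjusted p = 0.000824). Gbp3 went from 12.3 ± 2.14 to 2.24 FPKM (-2.05 ± 0.19, limma adjusted p = 0.00582) and Gbp2 from 9.26 ± 1.51 to 1.85 FPKM (-1.84 ± 0.17, limma adjusted p = 0.00623). Gbp7 had 6.64 ± 0.53 and 2.33 FPKM (-1.19 ± 0.12, limma adjusted p = 0.00802). The largest fitted difference was that of Ifi27l2a, at -2.35 ± 0.42, but its 5 other libraries spread from 41.9 to 101 FPKM and its limma adjusted p was 0.0499, equal to that of Ifi47. Irf8 (-0.98, limma adjusted p = 0.0217), Oasl1 (-1.14, limma adjusted p = 0.0313) and Parp14 (-0.69, limma adjusted p = 0.0447) completed the set. Irf8, Parp14 and Gbp7 overlap other annotated genes on the same strand, Gbp2 and Oasl1 on the opposite strand, and Ifi47 on both. Reads in these overlaps cannot be told apart by strand here. At the other end were Dtx3l (-0.03, 95% interval -0.30 to 0.24), Parp9 (-0.06, -0.35 to 0.22), Bst2 (-0.13, -0.72 to 0.46) and Ifi27 (-0.21, -1.07 to 0.65). None of these 4 intervals reaches the fitted difference of Zbp1 or of the 3 Gbp genes. The interval of Gbp7 (-1.48 to -0.90) does overlap that of Ifi27, and no difference between genes was tested.

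Of the 9, Zbp1 and Gbp3 alone kept their call in each of the 14 alternatives run. Leaving out either control 1 or MDL-800 2 left 1 library with Y-linked reads, and fewer members were then called. The number of members called was 4 without MDL-800 1 or without MDL-800 3, and 14 without control 3. The causes of these changes were not tested. The split was seen within each diet. The interferon-gamma class mean was 3.36 in control 1 against 4.17 to 4.25 in controls 2 to 4, and 2.82 in MDL-800 2 against 4.26 and 4.12 in MDL-800 1 and 3. MDL-800 2 was lower than control 1 in 41 of the 43 members, with Parp9 and Eif2ak2 as the exceptions.

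**Figure D3:**
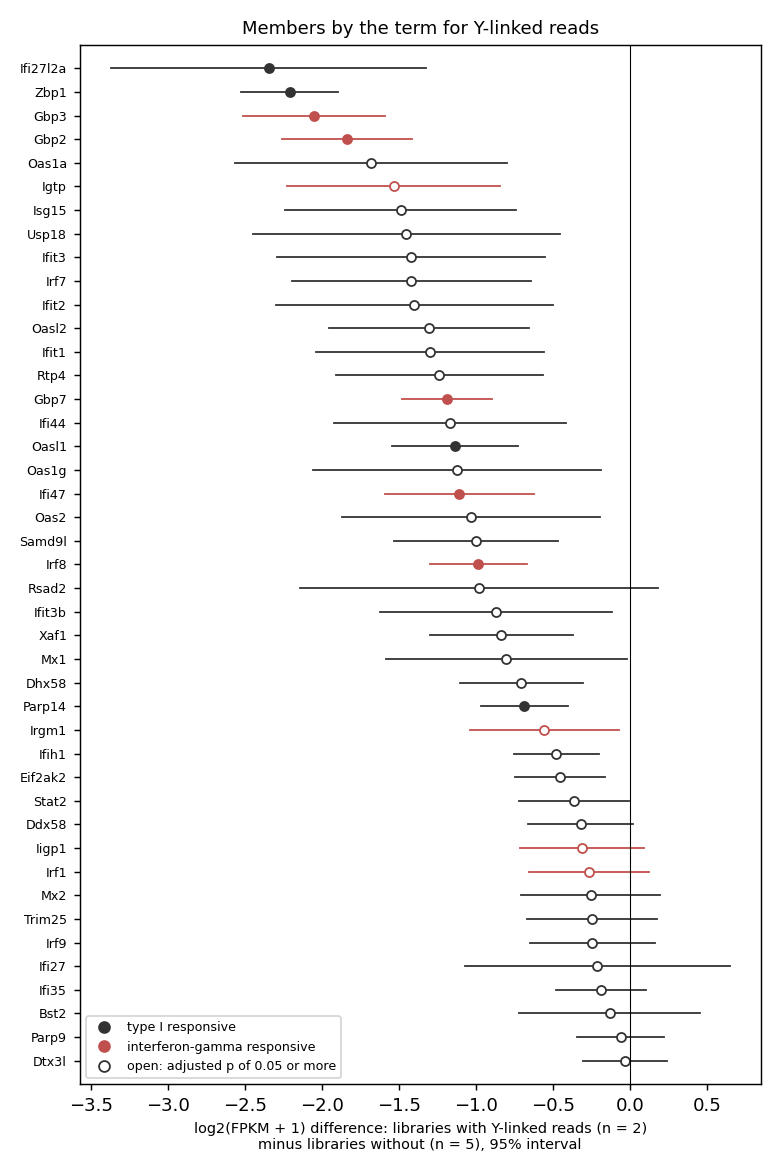
Difference in log2(FPKM + 1) between the 2 libraries with Y-linked reads and the 5 without, from a model with a diet term, for the 43 tested members with 95% intervals (filled points: adjusted p under 0.05; red: interferon-gamma responsive). All points lie below 0, from -2.35 for Ifi27l2a to -0.03 for Dtx3l.

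The summed markers of some other liver cells were lowest in the same libraries, and those of others were not. Of 13 Kupffer cell and macrophage markers, 10 had both Y-positive libraries below all others, Cd163 had both above, and 0 passed an adjusted p of 0.05 for the Y-linked term (limma; 10 were lower and 1 higher at an unadjusted p under 0.05). The summed level was 238 and 269 FPKM there against 496 to 2323 FPKM. The summed T and NK cell markers were 3.01 and 5.29 FPKM against 7.01 to 12.7 FPKM. Conventional dendritic cell markers summed to 2.01 and 2.84 FPKM against 3.63 to 13.5 FPKM. Both Y-positive libraries were below all others for 5 of the 10 T and NK cell markers and 2 of the 6 conventional dendritic cell markers. In each of these 2 lists 2 genes were expressed enough to be tested, and 0 were called lower for the Y-linked term (limma). The sums overlapped for neutrophil markers (11.7 and 37.7 FPKM against 22.6 to 289 FPKM), B cell markers (2.03 and 6.64 FPKM against 5.20 to 58.7 FPKM) and sinusoidal endothelial markers (23.9 and 27.9 FPKM against 12.3 to 39.8 FPKM). Plasmacytoid dendritic cell markers summed to 2.11 and 4.91 FPKM against 6.35 to 59.7 FPKM, and 1 of the 6 had both Y-positive libraries below all others. Of these markers, Ly6d ran up to 59.1 FPKM. Siglech and Ccr9, more specific to that cell, stayed at or below 0.303 and 0.0661 FPKM. The part of these cells in the members' values was not tested, and in whole liver fewer cells of a type and less RNA per cell cannot be told apart.

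By diet, no member passed the test. In the limma fit of MDL-800 against control over all 7 libraries, 0 of 43 members passed an adjusted p of 0.05, and 0 of all 11394 genes did (0%). At an unadjusted p under 0.05 there were 0 members, against 4.85% of all genes (553). The groups did not overlap for 0 members, against 6.45% of all genes. The members' median log2 difference was -0.03, with 20 above 0 and 23 below. That of all genes was 0.02, with 54.2% of genes above 0. The type I members had a median of 0.07, with 20 of 34 above 0. All 9 interferon-gamma responsive members were below 0, with a median of -0.22. With summed reads as the denominator, 8 of these 9 were below 0, and without MDL-800 2 their median was 0.19.

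The 12 members with the smallest p by diet all had a limma adjusted p of 0.950. Mx2 came first, with 2.65 ± 0.54 FPKM in controls (SD, n = 4) and 1.78 ± 0.58 FPKM with MDL-800 (SD, n = 3), a log2 difference of -0.41 ± 0.18 (SE). Parp9 followed, with 12.1 ± 0.88 and 14.1 ± 1.34 FPKM, a log2 difference of 0.21 ± 0.11. Stat2 measured 15.4 ± 2.51 and 12.1 ± 2.54 FPKM (-0.33 ± 0.18). Higher means with MDL-800 were also seen in Eif2ak2 (0.31 ± 0.19), Ddx58 (0.20 ± 0.17), Ifi44 (0.55 ± 0.48), Dtx3l (0.11 ± 0.10) and Trim25 (0.19 ± 0.18). Lower means were seen in Irf1 (-0.27 ± 0.17), Ifi47 (-0.63 ± 0.42), Ifi35 (-0.18 ± 0.13) and Iigp1 (-0.16 ± 0.19). The intervals show what the design could not resolve: that of Ifi44 ran from -0.58 to 1.69 and that of Ifi47 from -1.62 to 0.35.

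Within the 5 libraries without Y-linked reads (MDL-800 1 and 3 against controls 2, 3 and 4), type I members were mostly higher with MDL-800. Of 43 members, 14 had both MDL-800 libraries above all 3 controls, against 13.2% of all genes, and 1 (Ifi47) had both below, against 9.50%. The 14 were the sensors Ifih1, Ddx58, Dhx58 and Trim25, then Isg15, Parp9, Dtx3l, Ifit3, Ifit3b, Oasl2, Eif2ak2, Bst2 and Ifi44, and Gbp3 as the single interferon-gamma responsive member. That is 13 of 34 type I and 1 of 9 interferon-gamma responsive members. The median log2 difference was 0.31 over type I members, of which 30 of 34 were above 0, and -0.04 over interferon-gamma responsive members, of which 3 of 9 were above 0. The median over all genes was 0.02, with 53.3% of genes above 0. With all 7 libraries and a term for Y-linked reads, the type I median was smaller, at 0.14, with 23 of 34 above 0. The interferon-gamma median was then -0.14, with 1 of 9 above 0. Between the 2 Y-positive libraries the direction was the other way, with MDL-800 2 below control 1 in 41 of the 43 members. No gene was called among the 11394 in the fit of the 5 libraries without Y-linked reads. Ifi44 had the smallest p of the members, with a log2 difference of 1.02 ± 0.21 (SE, limma adjusted p = 0.627), and Ddx58, Isg15 and Eif2ak2 were also at an unadjusted p under 0.05, which makes 4 of 43 members against 5.40% of all genes. The count rested partly on control 2: without it 24 members had MDL-800 above all controls, against 19.7% of all genes. Without control 3 the count was 14 of 43, against 28.9% of all genes. With summed reads as the denominator the count was 12 of 43, against 22.8% of all genes. In these 2 settings the members' share was close to that of all genes. This count was chosen after seeing the data. The 12 members named above kept their signs in these 5 libraries, with none past an adjusted p of 0.05. Eif2ak2 stood at 0.38 ± 0.15, Ddx58 at 0.37 ± 0.13, Trim25 at 0.35 ± 0.18, Parp9 at 0.29 ± 0.13 and Dtx3l at 0.21 ± 0.11 (log2 difference ± SE). Those with a lower mean were closer to 0: Ifi47 at -0.31 ± 0.15, Mx2 and Stat2 at -0.22, Irf1 at -0.18 ± 0.19, Ifi35 at -0.10 ± 0.14 and Iigp1 at -0.02 ± 0.18.

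**Figure D4:**
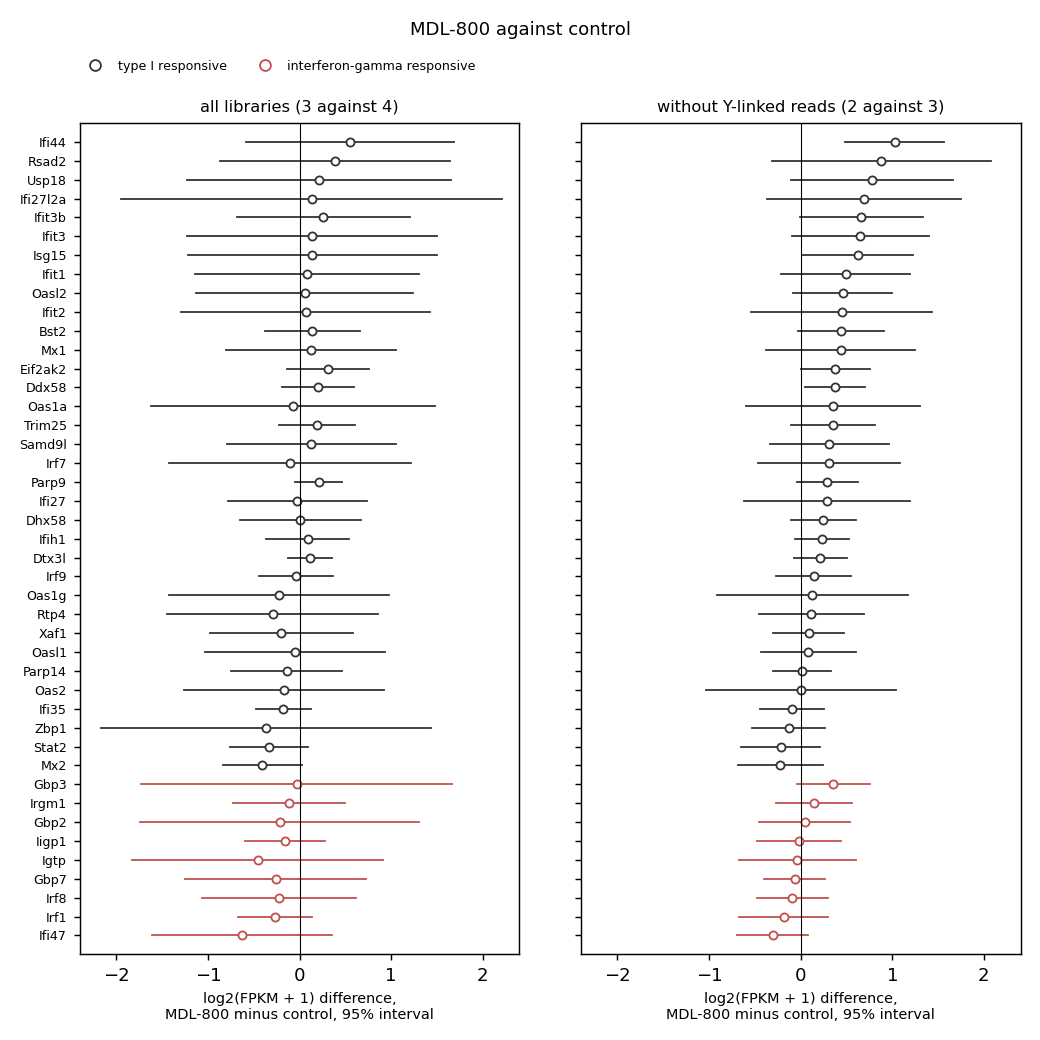
Difference in log2(FPKM + 1), MDL-800 minus control, with 95% intervals for the 43 tested members, over all 7 libraries (left) and over the 5 without Y-linked reads (right), with type I responsive members in black and interferon-gamma responsive members in red. No member passed an adjusted p of 0.05 in either panel. On the right, 30 of 34 type I members and 3 of 9 interferon-gamma responsive members are above 0, against 53.3% of all genes.

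Upstream of the members, the ligands were close to silent. Of 13 interferon genes, 10 had 0 reads in all libraries, where the limit of 3 reads is worth 0.154 to 0.212 FPKM for a gene of 1 kilobase. Ifng had 0, 3, 1 and 1 reads in controls and 6, 0 and 2 reads with MDL-800, Ifnk 1 to 6 reads in each library, and Ifna6 1 read in MDL-800 3. The type I receptor chains were even, with Ifnar1 at 6.05 to 8.34 FPKM and Ifnar2 at 16.4 to 20.4 FPKM. The interferon-gamma receptor chain Ifngr1 measured 6.97, 21.8, 7.76 and 12.5 FPKM in controls and 11.9, 6.37 and 12.9 FPKM with MDL-800, lowest in the 2 libraries with Y-linked reads. Ifngr2 was at 4.99 to 11.1 FPKM. The shared chain Il10rb ran from 1.62 to 9.23 FPKM, and Ifnlr1, the lambda receptor, stayed at or below 0.455 FPKM. Control 2 was the highest library for Ifngr1, Ifngr2, Il10rb and Ifnlr1.

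Of 72 pathway genes outside the members (ligands, receptors, kinases and signalling, negative regulators and other responsive genes), 48 were tested. By diet 0 of the 48 passed an adjusted p of 0.05 and 1 was at an unadjusted p under 0.05 (limma). Their median log2 difference was -0.07 over all 7 libraries, with 12 above 0 and 36 below, and 0.07 over the 5 libraries without Y-linked reads, with 30 above 0 and 18 below. The smallest p was that of Socs3, the feedback inhibitor of cytokine receptors. It measured 7.99, 8.27, 6.55 and 7.55 FPKM in controls and 2.78, 4.01 and 3.43 FPKM with MDL-800, so the groups did not overlap. Its log2 difference was -0.97 ± 0.13 (SE, limma adjusted p = 0.467), and -1.04 ± 0.15 without the Y-positive libraries (limma adjusted p = 0.582). Irf5, a macrophage factor downstream of Toll-like receptors, had -0.86 ± 0.39 (limma adjusted p = 0.950) and -0.88 ± 0.42 without them. The adaptor Ticam1 had 0.17 ± 0.08 (limma adjusted p = 0.950) and 0.22 ± 0.12 without them.

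For the term for Y-linked reads, 1 of the 48 was called lower and 1 higher, against 1.10% and 1.33% of all genes, so these counts are near the background. Trim30a, an interferon-inducible regulator of inflammatory signalling, was lower (-1.45 ± 0.22, limma adjusted p = 0.0309). It measured 1.66 and 1.05 FPKM in the 2 libraries and 4.04 to 7.03 FPKM in the other 5. Irf2, known as a repressor that competes with Irf1 at its sites, was higher (0.95 ± 0.13, limma adjusted p = 0.0264). It measured 12.9 FPKM in control 1 and 10.1 FPKM in MDL-800 2, and 4.62 to 6.50 FPKM in the other 5 libraries. These 2 genes were singled out after their values were seen. Of the 20 tested genes among 26 further interferon-responsive genes, such as Cmpk2, Gbp4 and Cxcl9, all 20 were below 0, with a median of -0.76, and 14 had both libraries below the other 5, against 12.8% of all genes tested.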

How the data were processed

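RNA was measured in 7 mouse liver libraries. Liver lysates went straight into cDNA synthesis, per the labels' protocols, and the cDNA was amplified with a SMARTer low-input kit and built into libraries with an NEBNext DNA kit, which marks no strand. The authors deposited FPKM per gene in 1 table, with gene lengths and coordinates. The submitters' processing notes list Bowtie2 2.1.0, TopHat2 2.0.14 and Cufflinks 2.2.1, and the build mm9. The counting tool is not given in these sources. For 43 of the 44 members the chromosome, start and end in the table equal those of GENCODE M21, so coordinates are given as GRCm38.

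FPKM times gene length was a whole number of reads for 100% of nonzero values up to 2000 reads (within 0.01), and summed reads were 0.995 to 1.28 times the deposited denominator. Values were tested as log2(FPKM + 1) for the 11394 genes averaging 1 FPKM or more, a scale that understates fold changes of low genes. Linear models were fitted in limma 3.58.1 (R 4.3.3) with a moderated, intensity-trended variance. Two-sided p-values were adjusted by Benjamini-Hochberg over all genes tested, and the threshold was 0.05. Fits used all 7 libraries and no covariate, and a term for Y-linked reads was an alternative. The fit with terms for diet and for Y-linked reads was tested on simulated data with independent noise for each gene. The main fit without a covariate was not tested in this way. Motifs were searched in Python 3.11.15.

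The members, the lists and the term for Y-linked reads were chosen with earlier results of these data known. Every member is named, statistics by diet are given for the 12 members with the smallest p, and of the pathway lists the receptors and the 3 genes with the smallest p are named. A further pathway gene that this rule takes is not reported here. Alternatives were a pseudocount of 0.1, no filter, a minimum mean of 5 FPKM, quantile or median scaling, summed reads as the denominator, a replicate block, the term for Y-linked reads, the libraries without such reads, limma voom on recovered reads, and leaving out each library. Results of the Y-linked term itself, and the count of members with MDL-800 above all controls, were added after seeing the data. Limits at 0 reads are 3 reads and cover counting error only. Same-numbered libraries of the 2 groups were not treated as paired in the main fits. Their deviations from the group means correlated at -0.59, -0.55 and 0.06 across genes. The highest correlation was 0.77, between control 1 and MDL-800 2, the libraries with Y-linked reads. That split enters these values, so they cannot decide whether the libraries were paired.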

Additional observations from a re-analysis of the deposited data

Results flagged for a closer look

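In 2 of the 44 members, 1 control stood apart from the other 3 by Dixon's criterion, which compares the gap to the nearest value with the whole range. Chance flags about 1 in 20 groups, so with 44 groups 2 are not unusual. Mx1 was at 2.16 FPKM in control 2, and the next control was at 0.824 FPKM (gap over range 0.835). Iigp1 was at 197 FPKM in control 3, and the next control was at 160 FPKM (gap over range 0.832). No explanation was tested for either.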

How the results depend on the processing

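In all 17 alternatives of the diet comparison, 0 members were called. The number of genes called ranged from 0 to 1 when a library was left out: Cyp46a1 without control 1 and Gm34654 without MDL-800 1, both named after their values were seen. The type I median ranged from -0.26 (without MDL-800 1) to 0.38 (without MDL-800 2), and the interferon-gamma median from -0.46 (without control 1) to 0.19 (without MDL-800 2). Of the 12 members named by diet, Iigp1 changed sign, with a range of -0.28 to 0.01 on leaving out a library and 0.0145 without MDL-800 2. The replicate block gave 0 called genes, with medians of 0.09 (type I) and -0.18 (interferon-gamma), and changed no call. The number of members called lower with Y-linked reads was 4 with no filter on low values, which adjusts over 26975 genes, and ranged from 2 to 14 on leaving out a library. Gbp2 and Gbp7 kept their call in 12 of 14 alternatives, Irf8 in 7 of 13, Oasl1 in 7, Ifi47 in 5, Parp14 in 4 and Ifi27l2a in 3 of 14. The causes were not tested. The members with MDL-800 above all controls without Y-linked reads ranged from 14 to 24 of 43 on leaving out a library. The share of all genes ranged from 19.7% (without control 2) to 28.9% (without control 3) in the same runs, against 13.2% with all 5 libraries. Against the deposited scaling, voom moved the median of all genes for the Y-linked term from 0.08 to -0.09, and all 43 tested members stayed below 0 under each scaling run.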
